A study of Rattus norvegicus with 24 samples.

Results

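Aqp4, the gene of the water channel aquaporin-4, and 7 genes of the dystrophin-glycoprotein complex (Dmd, Dag1, Sgca, Sgcb, Sgcd, Utrn and Dtna) were followed across the 24 rats of a study of cardiac cachexia (CC), the muscle wasting of advanced heart failure. The genes were chosen by symbol, and all 8 were found among the 10851 genes of the count table. Medial gastrocnemius muscle, a limb muscle of mainly fast-twitch fibres, was sampled from male Wistar rats, and its polyadenylated RNA was sequenced. Sedentary rats given saline formed the group Sed (n = 6), treadmill-trained rats given saline the group Ex (n = 6), sedentary rats given 1 injection of monocrotaline the group CC-Sed (n = 6), and trained rats given the same injection the group CC-Ex (n = 6). Monocrotaline is a plant alkaloid that damages lung vessels, so that the right ventricle fails. The training was aerobic running that ran alongside the development of the disease, and each library came from 1 animal, with no pooling. Rats that died, or that showed no remodelling of the right ventricle after monocrotaline, did not enter the CC groups, so these groups hold survivors with overt disease. In whole muscle, fewer cells of a type and less RNA per cell cannot be told apart.

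Total estimated counts per rat lay between 37816239 and 50350554. Summed levels of 9 fast-fibre genes lay between 70603 and 213645 CPM (counts scaled to a common library size) in every rat, which matches the labelled tissue. CC-Ex replicate 5 stood apart from the other rats on the first principal component. Library sizes for CPM were scaled by the trimmed mean of M-values (TMM), and a gene was called when its adjusted p-value over all genes was under 0.05.

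The dystrophin-glycoprotein complex spans the sarcolemma, the membrane of the muscle fibre. Dystrophin binds actin inside the fibre and the transmembrane part of dystroglycan, whose outer part holds laminin of the basal lamina, while the sarcoglycans stabilise the assembly and dystrobrevin and the syntrophins attach signalling proteins to it. Aquaporin-4 is anchored to this complex and is best known in muscle from the sarcolemma of fast fibres, where it lets water cross.

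Aqp4 was the gene of the set that varied most between rats. Its level in Sed rats ran from 8.92 to 106 CPM with a median of 46.7, and in Ex rats from 11.6 to 86.3 CPM with a median of 40.3. In CC-Sed rats it ran from 33.5 to 109 CPM with a median of 85.6, and in CC-Ex rats from 5.98 to 177 CPM with a median of 93.5. The CC medians were higher than both control medians, but the groups overlapped, and the lowest level of all 24 rats was in CC-Ex replicate 5, a cachectic animal. In CC-Sed, 5 of 6 rats lay above the Sed median, and in CC-Ex, 5 of 6 lay above the Ex median.

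Against that spread the Log2FC of Aqp4 between CC and control over both training states was 0.86 (SE 0.42, n = 12 rats against 12, 95% interval -0.01 to 1.72), which did not pass the test (edgeR quasi-likelihood test, Benjamini-Hochberg adjusted p = 0.122). The interval of the CC-Ex vs. Ex difference ran from -0.21 to 2.25 (adjusted p = 0.294), and that of CC-Sed vs. Sed from -0.53 to 1.91 (adjusted p = 0.452). The study itself, which used DESeq2, listed Aqp4 as upregulated in both of these comparisons. Its threshold was an adjusted p under 0.05 with a Log2FC of at least 1. In both comparisons the Log2FC it reported for Aqp4 was larger than the values that follow. DESeq2 on the deposited counts gave 0.68 (adjusted p = 0.414) for CC-Sed vs. Sed and 1.02 (adjusted p = 0.233) for CC-Ex vs. Ex. The reason for this difference from the study was not tested. A fit that gives less weight to deviating libraries, limma-voom with sample quality weights, put the value over both training states at 1.22 and past the threshold (adjusted p = 0.0188). Without CC-Ex replicates 4 and 5, a choice made after seeing the data for the rats with the lowest slow-fibre scores (which are compared with Aqp4 further on), it was 1.08 (adjusted p = 0.0284). Leaving out any single rat gave values from 0.70 to 1.05, with adjusted p-values from 0.0541 to 0.208.

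**Figure D1:**
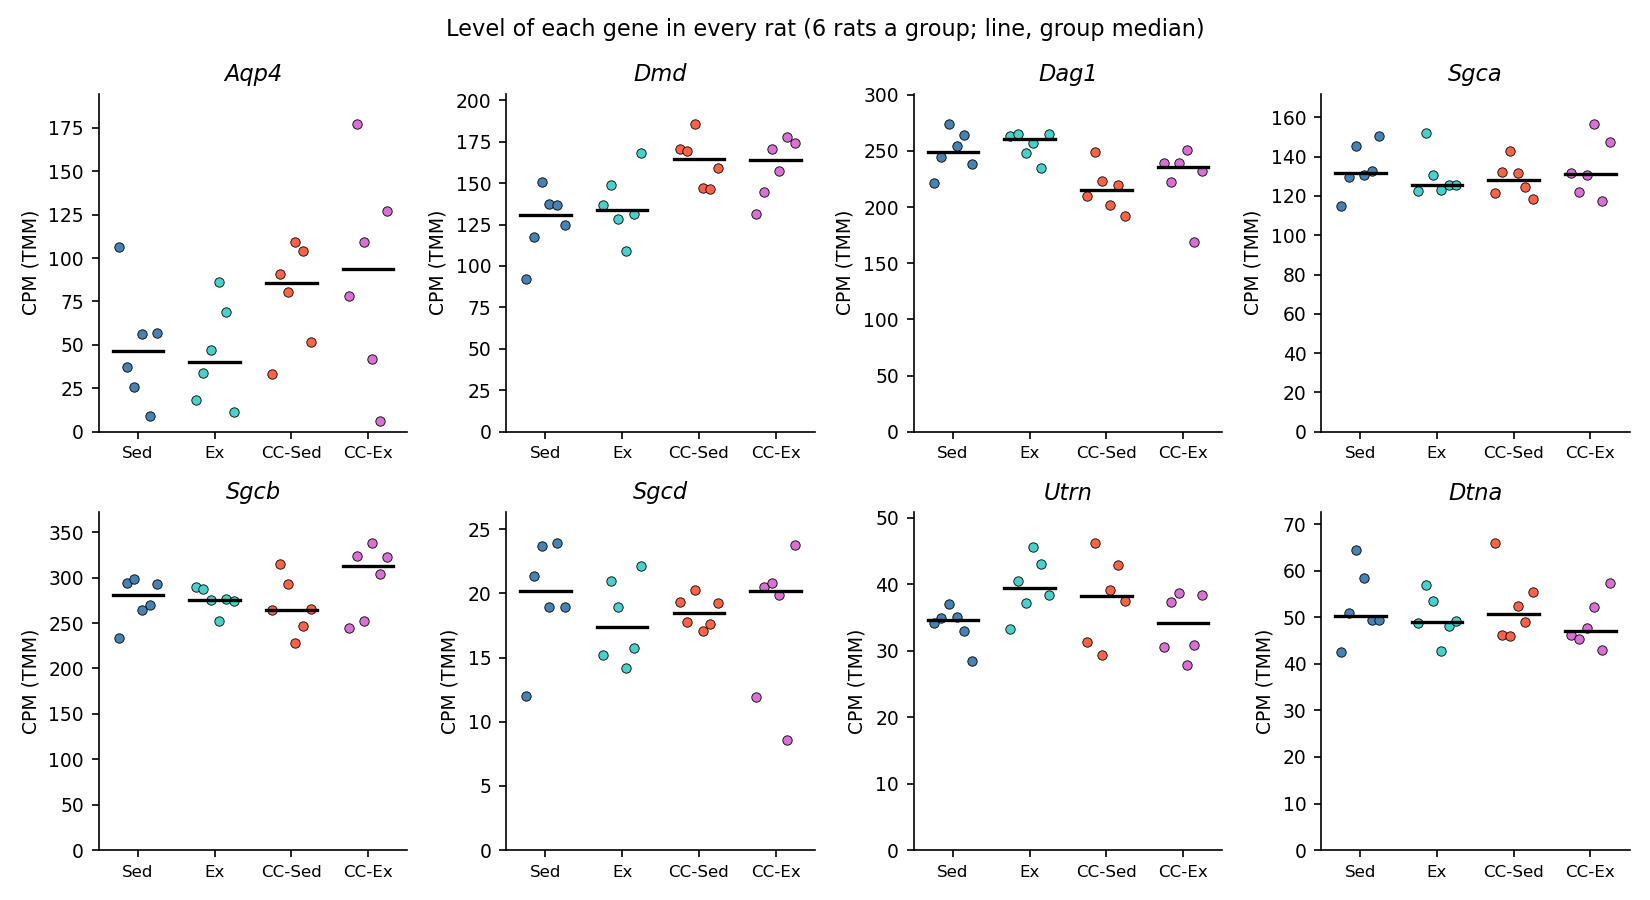
Level of each of the 8 genes in CPM (y axis, from 0, own scale for each gene) in every rat of the 4 groups (x axis); points are rats, shown in order of replicate number, and lines are group medians. Aqp4 spreads from 5.98 to 177 CPM in CC-Ex alone, while Dag1, Sgca and Sgcb stay in narrow bands.

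The spread itself set Aqp4 apart. The SD of log2 CPM between rats of one group was 1.26 for Aqp4, against a median of 0.30 over all genes, and 92 of 10851 genes had a larger one. Highest and lowest rats differed 29.6-fold in CC-Ex, 11.9-fold in Sed, 7.45-fold in Ex and 3.26-fold in CC-Sed. Single rats set these ratios, and without the lowest rat of each group they were 4.23 (without CC-Ex replicate 5), 4.14 (without Sed replicate 5), 4.79 (without Ex replicate 6) and 2.12 (without CC-Sed replicate 1). The lowest Aqp4 count in any rat was 255, so that the spread was measured well above the minimum of 10 counts in the table.

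The complex genes lay at the other end. Sgca had a within-group SD of 0.13, Dag1 of 0.14 and Sgcb of 0.15 on the log2 scale, each below those of over 90% of genes (percentiles 4.64, 5.97 and 8.75). Dtna, Utrn and Dmd had SDs of 0.18, 0.19 and 0.20. Sgcd was the exception with 0.37, at percentile 63.2. No test was made of these SDs, which describe the rats at hand.

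**Figure D2:**
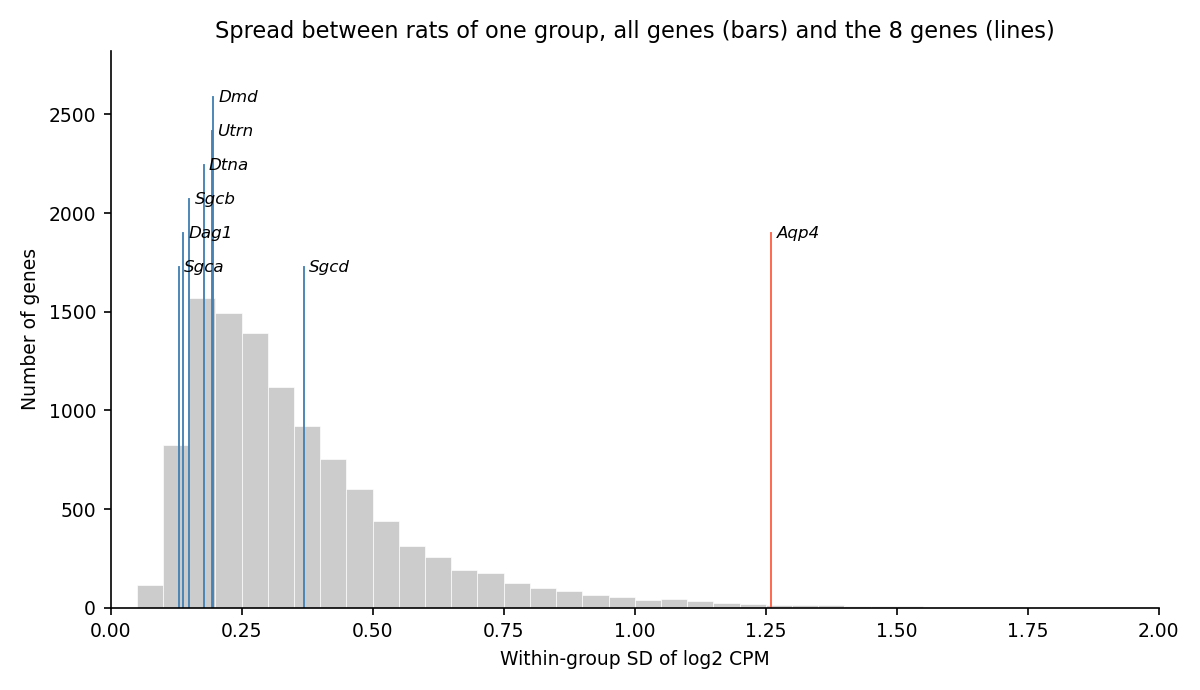
Number of genes (y axis) by the SD of log2 CPM between rats of the same group (x axis) for all 10851 genes as grey bars; lines mark the 8 genes, and their heights only separate the labels. Aqp4 lies at 1.26 in the thin upper tail, and Sgca, Dag1 and Sgcb lie at or below 0.15.

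Dmd encodes dystrophin, and its level was higher in CC. It ran from 92.4 to 151 CPM in Sed with a median of 131, and from 109 to 168 CPM in Ex with a median of 134. In CC-Sed it ran from 146 to 186 CPM with a median of 164, and in CC-Ex from 132 to 178 CPM with a median of 164. All 6 CC-Sed rats exceeded the Sed median, and 5 of 6 CC-Ex rats exceeded that of Ex, though the groups overlapped.

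Over both training states Dmd rose with a Log2FC of 0.29 (SE 0.08, 1.22-fold, adjusted p = 0.0135). The single comparisons did not pass, with 0.37 (SE 0.12, adjusted p = 0.0582) for CC-Sed vs. Sed and 0.22 (SE 0.12, adjusted p = 0.255) for CC-Ex vs. Ex. These comparisons share their rats with the pooled one and are not separate evidence. The pooled call was lost under upper-quartile scaling, where the value was 0.21 (adjusted p = 0.0529), and the CC-Sed vs. Sed value passed with DESeq2 at 0.35 (adjusted p = 0.0417).

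Dag1 encodes dystroglycan, the laminin receptor of the complex, and moved the other way. Its level ran from 221 to 274 CPM in Sed with a median of 249, and from 235 to 265 CPM in Ex with a median of 260.2. In CC-Sed it ran from 192 to 249 CPM with a median of 215, and in CC-Ex from 169 to 251 CPM with a median of 236. All 12 CC rats lay below the median of the 12 control rats, with overlap at the edges. Over both training states Dag1 fell by 0.19 on the log2 scale (SE 0.06, 0.874-fold, adjusted p = 0.0281).

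The difference in Dag1 was -0.21 (SE 0.09, adjusted p = 0.138) for CC-Sed vs. Sed and -0.18 (SE 0.09, adjusted p = 0.233) for CC-Ex vs. Ex. CC-Ex replicate 5 held the lowest level, 169 CPM. Without it and replicate 4 the pooled value was -0.17 (adjusted p = 0.0223), and without Sed replicate 3 it was -0.18 (adjusted p = 0.0506), so that the call was lost.

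Utrn encodes utrophin, the dystrophin homologue that is concentrated at the neuromuscular junction of adult fibres. It ran from 28.5 to 37.02 CPM in Sed with a median of 34.6, and from 33.2 to 45.5 CPM in Ex with a median of 39.4. In CC-Sed it ran from 29.3 to 46.2 CPM with a median of 38.3, and in CC-Ex from 27.8 to 38.7 CPM with a median of 34.1. No CC-Ex rat lay above the Ex median, while 4 of 6 CC-Sed rats lay above the Sed median. The Log2FC was 0.16 (SE 0.11, adjusted p = 0.36) for CC-Sed vs. Sed and -0.22 (SE 0.11, adjusted p = 0.239) for CC-Ex vs. Ex. Their difference, the interaction of training and cachexia, was -0.38 (SE 0.16), with an unadjusted edgeR p of 0.0257 that did not survive adjustment over all genes (adjusted p = 0.99958). None of the 9 measured neuromuscular junction genes was called over both training states, where 27.8% of all genes were, and their smallest adjusted p was 0.0507.

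Sgca, Sgcb and Sgcd encode α-, β- and δ-sarcoglycan, and none was called in any comparison. Sgca medians in the order Sed, Ex, CC-Sed, CC-Ex were 132, 126, 128 and 131 CPM, and the 95% interval of its pooled Log2FC was -0.13 to 0.12. Sgcb medians were 281, 276, 265 and 313 CPM in the same order, with an interval of -0.11 to 0.18. Both intervals include 0, so that neither pooled difference can be told from 0 with 12 rats against 12.

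Sgcd medians were 20.2, 17.3, 18.5 and 20.1 CPM, with a wider interval of -0.35 to 0.23 and single low rats, Sed replicate 1 at 12.0 CPM and CC-Ex replicate 5 at 8.61 CPM. Dtna encodes α-dystrobrevin, and its medians were 50.2, 48.9, 50.8 and 47.0 CPM, with an interval of -0.17 to 0.14.

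**Figure D3:**
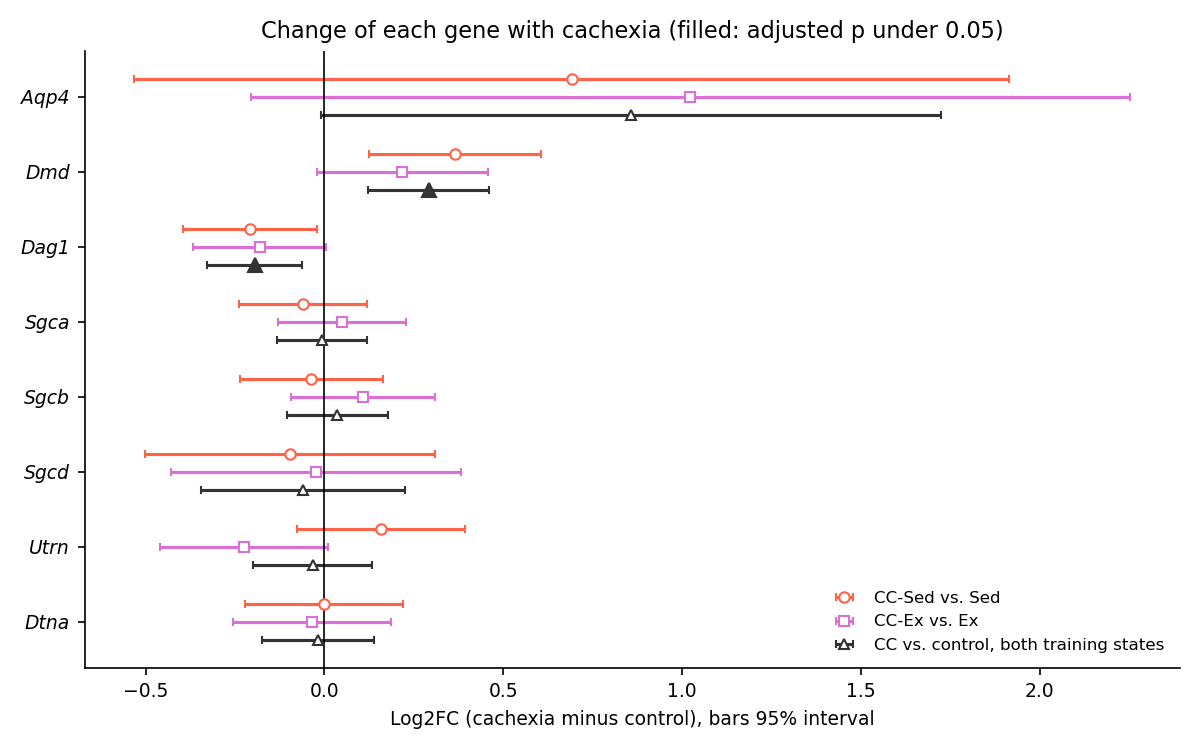
Log2FC of each gene (x axis) with its 95% interval for CC-Sed vs. Sed (circles), CC-Ex vs. Ex (squares) and CC vs. control over both training states (triangles), from the edgeR fit to 24 rats; filled symbols had an adjusted p under 0.05. Dmd at 0.29 and Dag1 at -0.19 are filled, and the Aqp4 bars are the widest.

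By count, 0 of the 8 genes were called in CC-Sed vs. Sed, where 6.46% of all genes were, and 0 of 8 in CC-Ex vs. Ex, where 0.995% were. Over both training states 2 of 8 were called, against 27.8% of all genes, so that their share was close to the background. Dmd was 1 of the 17.2% that rose, and Dag1 1 of the 10.6% that fell. Of the genes called there, 61.8% were higher in CC, and 45.2% under upper-quartile scaling. None of the 8 had groups that did not overlap, which was so for 3.61% of genes in CC-Sed vs. Sed, 1.08% in CC-Ex vs. Ex and 0.138% over both training states.

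Training alone called none of the 8 in Ex vs. Sed (0% of all genes), in CC-Ex vs. CC-Sed (0%) or in the interaction (0%). At an unadjusted p under 0.05, edgeR gave 118, 234 and 154 genes in these comparisons, and DESeq2 and limma-voom also called 0 genes in each.

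The RefSeq table of the GRCr8 build held windows of 300 bases around the start of transcription for 7 of the 8 genes, and Dag1 had none there. The windows for the 2 genes with the largest spread and the largest called change are shown, each running 5′ to 3′ on the gene's strand from 250 bases before the start to 50 after it, with E-boxes in capitals. An E-box is CANNTG, the same on both strands, the element that myogenic basic helix-loop-helix factors recognise.

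Aqp4 (chr18:6798793-6799092, minus strand): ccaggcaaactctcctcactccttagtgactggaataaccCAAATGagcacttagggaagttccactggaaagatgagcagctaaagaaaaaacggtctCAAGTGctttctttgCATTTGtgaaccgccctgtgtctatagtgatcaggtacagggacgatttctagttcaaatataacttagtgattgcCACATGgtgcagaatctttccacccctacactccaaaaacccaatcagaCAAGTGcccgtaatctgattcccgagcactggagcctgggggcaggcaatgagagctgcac
Dmd (chrX:51205836-51206135, plus strand): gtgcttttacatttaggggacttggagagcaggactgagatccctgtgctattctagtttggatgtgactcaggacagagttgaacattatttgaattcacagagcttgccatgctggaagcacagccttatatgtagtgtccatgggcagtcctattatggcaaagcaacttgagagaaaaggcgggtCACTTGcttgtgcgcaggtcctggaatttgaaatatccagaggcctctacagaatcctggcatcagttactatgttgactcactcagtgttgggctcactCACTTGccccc

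The Aqp4 window shown held 5 E-boxes and the other Aqp4 window 1, while the Dmd window shown held 2 and the other 2 Dmd windows 0. E-boxes occurred in 72.1% of 33469 windows, with a median of 1, and 16.6% held 3 or more. The Dmd window shown was the only 1 of the 10 windows of these genes with a CArG box, the element of serum response factor, which was in 1.64% of all windows. None of the 10 held a MEF2 element, a FoxO site (GTAAACA) or a glucocorticoid half-site (AGAACA), which were in 0.565%, 3.78% and 20.7% of windows. These are letter matches and show no binding.

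Next, the members were compared with each other and with fibre-type scores, the mean log2 CPM of 4 slow-fibre genes (Myl3, Tnnc1, Tpm3 and Tnni1) and of 9 fast-fibre genes, after subtraction of each group's mean. Of 28 pairs of the 8 genes, 0 passed (within-group permutation test with 100000 draws, Benjamini-Hochberg adjusted over the 28). Aqp4 and Dmd had r = -0.56 and rho = -0.55 (permutation p = 0.00876 and 0.0104, adjusted p = 0.0561 and 0.0811), and leaving out the 2 rats farthest from the median of Aqp4 gave r = -0.58. Dag1 and Sgcd had r = 0.63, which was 0.12 without the 2 rats farthest out, so that it rested on them. Aqp4 and Sgcd had r = -0.72 in the 12 saline rats and 0.71 in the 12 monocrotaline rats, and Aqp4 and Dag1 -0.72 and 0.68. CC-Ex replicate 5 held the lowest level of each of these genes, and without it r in the 11 other monocrotaline rats was 0.10 for Aqp4 and Sgcd and -0.06 for Aqp4 and Dag1.

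Aqp4 had r = 0.67 and rho = 0.74 with the slow-fibre score across 24 rats (permutation adjusted p = 0.0244 and 0.00756 over 24 relations). Its r was 0.69 in saline and 0.66 in monocrotaline rats, where neither passed (permutation adjusted p = 0.182 and 0.278). Without the 2 rats farthest out r was 0.47 (permutation adjusted p = 0.232). After seeing the data, the rats were also divided at a score of 7, into 17 between 7.47 and 10.7 and 7 between 1.05 and 5.90. This was not the widest gap between scores. The 7 low rats were 3 of Sed, 1 of Ex, 1 of CC-Sed and 2 of CC-Ex. Aqp4 had a median of 25.6 CPM in them (5.98 to 90.8) and of 78.0 CPM in the other 17 (11.6 to 177). Within the 17 rats Aqp4 had r = 0.14 and rho = 0.14 with the score (permutation p = 0.647 and 0.643), and within the 7, without subtraction of group means, r = 0.46 and rho = 0.54 (exact permutation p = 0.307 and 0.236). The slow-fibre genes lay lower in these 7 rats by the way the rats were divided. The part of these genes in the Aqp4 spread was not tested.

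Sgcb had r = -0.60 and rho = -0.54 with the slow-fibre score across 24 rats, which did not pass (permutation adjusted p = 0.0664 and 0.12). In saline and monocrotaline rats r was -0.55 and -0.63 (permutation adjusted p = 0.264 and 0.278). Without the 2 rats farthest out it was -0.59 and passed (permutation adjusted p = 0.0146). Among the 17 rats, a division made after seeing the data, Sgcb had r = -0.66 and rho = -0.77 with this score (permutation p = 0.00026 and 0.00074, adjusted p = 0.00492 for r over 24 relations). Sgca followed the fast-fibre score across 24 rats, with r = 0.66 and rho = 0.71 (permutation p = 0.00032 and 0.00063, adjusted p = 0.00768 for r over 24 relations). Without the 2 rats farthest out r was 0.65 and in monocrotaline rats 0.81, while in saline rats it was 0.47 (permutation p = 0.135) and did not pass. Sgcb had r = 0.62 and rho = 0.68 with the fast-fibre score (permutation p = 0.00576 and 0.00146, adjusted p = 0.0461 for r). Its r was 0.81 in saline rats, but 0.46 without the 2 rats farthest out (adjusted p = 0.232), 0.56 in monocrotaline rats (permutation p = 0.0639) and 0.44 in the 17 rats (permutation p = 0.12), where it did not pass.

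**Figure D4:**
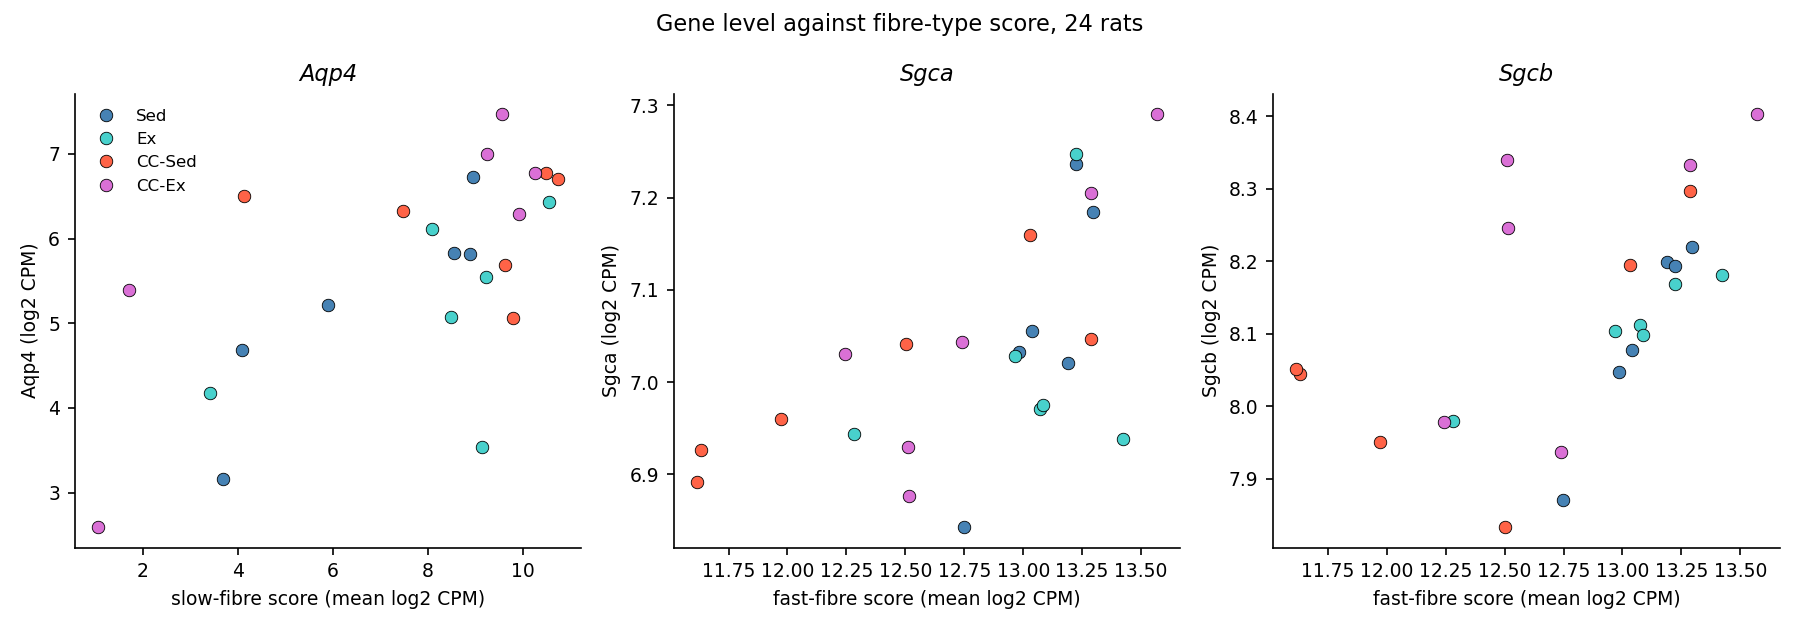
Level of Aqp4 against the slow-fibre score, and of Sgca and Sgcb against the fast-fibre score, all in log2 CPM and without subtraction of group means; points are the 24 rats, coloured by group. The division at a slow-fibre score of 7 falls between rats at 5.90 and 7.47, and Aqp4 runs from 5.98 to 90.8 CPM in the 7 rats below it.

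The genes whose level followed Aqp4 most closely across 24 rats, after subtraction of group means, were RragB (r = 0.87), Echs1 (0.86), Ntpcr (0.84), Mpnd (0.84) and Gucy2g (0.84). Oxsr1 (-0.88), Kif5b (-0.87) and Epm2aip1 (-0.86) ran most opposite. Echs1 encodes a mitochondrial enoyl-CoA hydratase of fatty acid oxidation, and Oxsr1 a kinase of the cation-chloride cotransporters that govern cell volume. None of these 8 genes was called in CC vs. control, where Echs1 had an adjusted p of 0.0922 and the others higher ones. Dmxl1 (0.84), Ro60 (0.80) and Neb (0.78), the last encoding the thin-filament ruler nebulin, followed Dmd. The correlations describe these rats and carry no test, since the genes were picked for them.

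Genes of the same structure that are not among the 8 were read from lists. Of 12 other dystrophin complex genes, 10 were measured, of which 1 rose and 2 fell over both training states (27.8% of all genes were called, 17.2% higher and 10.6% lower), with a median Log2FC of -0.22 against 0.01 over all genes. Sntb2, β2-syntrophin, fell by 0.44 on the log2 scale (adjusted p = 0.0357), at levels near 1 CPM, a call lost when any 1 of 9 rats was left out. Cav3, caveolin-3, fell too (-0.42 on the log2 scale, adjusted p = 0.0387), lost its call without any 1 of 12 rats, and was named after its values were seen.

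Dystroglycan binds laminin only when it carries its sugar chains. Of 17 genes that build them, 16 were measured, and 1 rose and 5 fell, with a median of -0.10, so that 37.5% were called against 27.8% of all genes, a difference that was not tested. Dpm1, a subunit of dolichol-phosphate mannose synthase, rose by 0.76 (SE 0.15, adjusted p = 0.00179), from medians of 25.5 and 26.7 CPM in Sed and Ex to 43.6 and 38.2 in CC-Sed and CC-Ex, and it was also called in CC-Sed vs. Sed (0.78, adjusted p = 0.035). CC-Ex replicate 5 held the highest CC-Ex level of Dpm1, 91.9 CPM. Without that rat the pooled value was 0.57 and still called (edgeR adjusted p = 4.8e-04). Pomgnt2, a glycosyltransferase of the core chain, fell by 0.73 on the log2 scale (SE 0.20, adjusted p = 0.0121), from 17.4 and 14.8 to 9.54 and 9.78 CPM. Pomk, Gmppb and Dolk were among the others that fell, and the Dolk call was lost without any 1 of 6 rats.

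Of 13 basal lamina genes, 0 rose and 2 fell, with a median of -0.19, so that 15.4% were called against 27.8% of all genes. Bgn, biglycan, fell by 1.03 (SE 0.34, adjusted p = 0.0284) and Nid1, nidogen-1, by 0.48 (SE 0.16, adjusted p = 0.0355) on the log2 scale. The Bgn call was lost without Sed replicate 6 or Ex replicate 6 (-0.92 and -0.76), and that of Nid1 without any 1 of 10 rats. Bgn also lost its call with limma-voom, where its value was -0.58 (adjusted p = 0.19). Both calls were lost with replicate number as a block in the fit, and without CC-Ex replicates 4 and 5 together. Fibroblast markers moved with Bgn and Nid1, as 3 of 6 fell, and their summed level had a median of 1597 CPM in Sed (399 to 2836), 2063 in Ex (830 to 4962), 792 in CC-Sed (481 to 1494) and 474 in CC-Ex (151 to 1571). Their part in the basal lamina values was not tested. No marker in any list was at 0.

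The integrin link to laminin had 1 called gene of 10, against 27.8% of all genes. This was Ilk, integrin-linked kinase, which fell by 0.23 on the log2 scale (SE 0.06, adjusted p = 0.00605). Tln2, talin-2, had -0.43 (adjusted p = 0.063), and passed with limma-voom (adjusted p = 0.0102). Among 11 membrane repair genes 0 rose and 2 fell (18.2% called), Cavin1, a coat protein of caveolae, by 0.42 (SE 0.09, adjusted p = 0.00396) and Trim72, which seals torn membrane, by 0.56 (SE 0.18, adjusted p = 0.0233). Of 13 aquaporin, ion channel and pump genes 9 were measured, of which 1 rose and 0 fell (11.1% called). Clcn1, the muscle chloride channel, ran from 10.9 to 176 CPM in CC-Ex against 137 to 167 CPM in Ex, with a pooled Log2FC of -0.62 (adjusted p = 0.0701). The low was CC-Ex replicate 5, and without it the CC-Ex range began at 96.6 CPM and the pooled Log2FC was -0.52 (adjusted p = 0.0221).

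**Figure D5:**
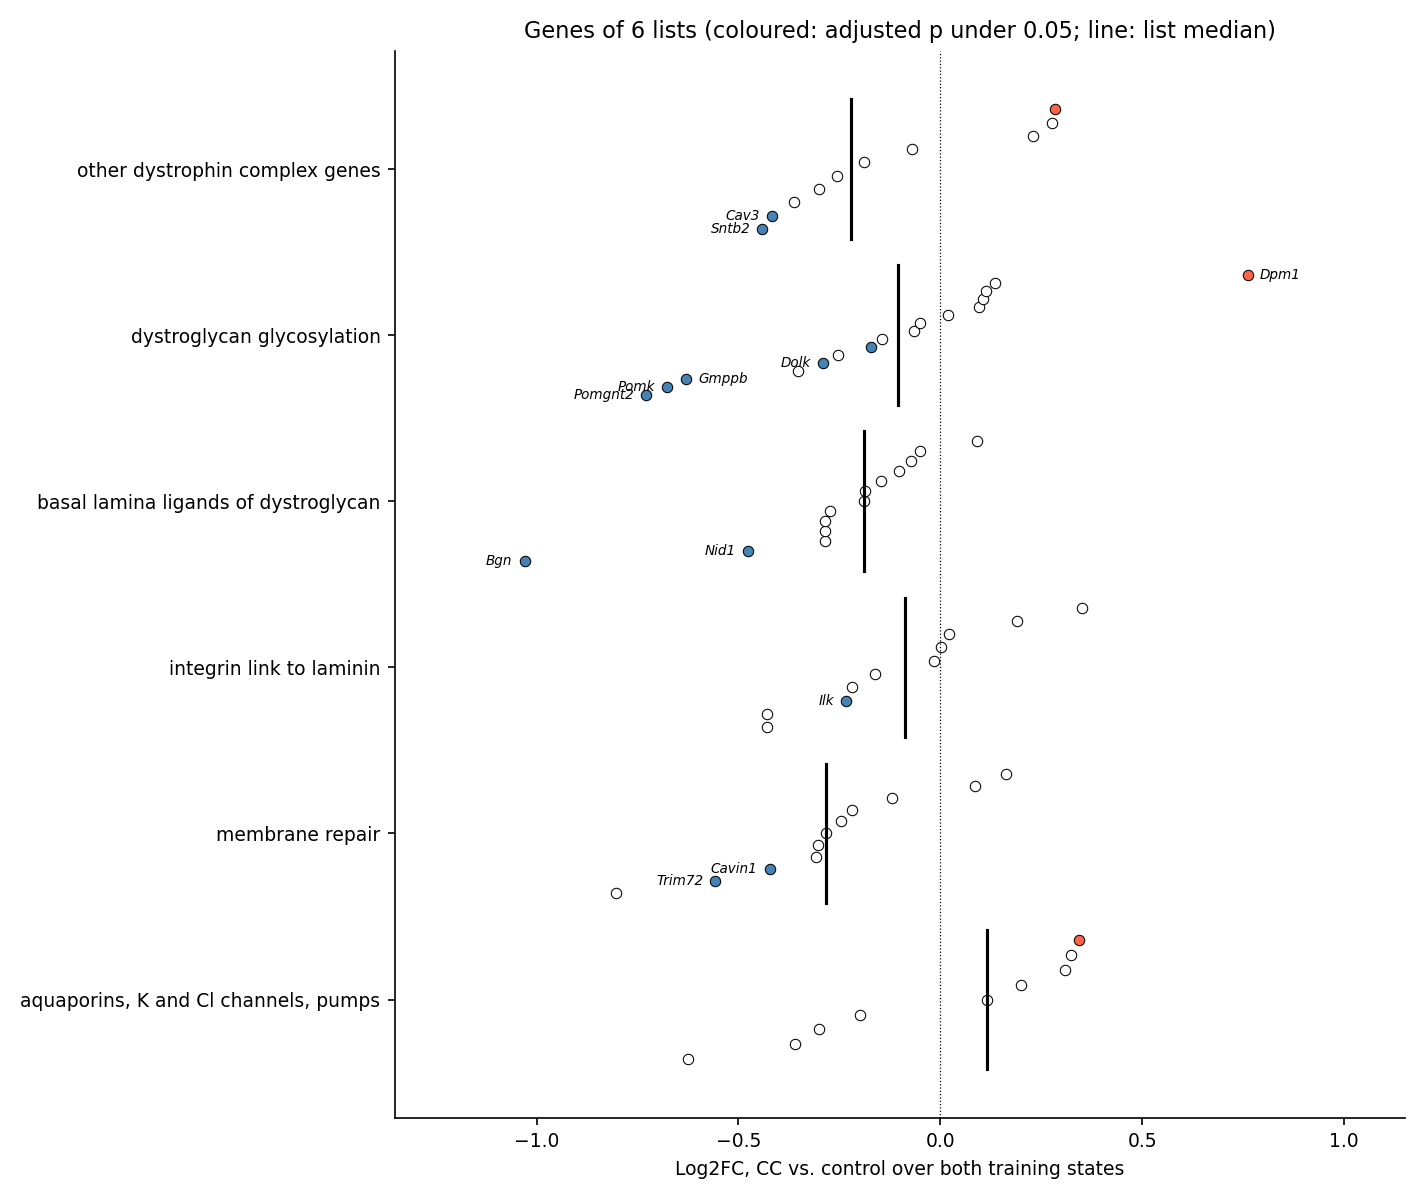
Log2FC over both training states (x axis) for the measured genes of 6 lists (rows), a point a gene; red points rose and blue points fell at an adjusted p under 0.05, and the short line is the list's median. Called genes that the text names are labelled, from Bgn at -1.03 to Dpm1 at 0.76.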

How the data were processed

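RNA of 24 rats, 6 in each of 4 groups named by the sample labels, was sequenced. The authors trimmed reads with Trim Galore, quantified transcripts with Salmon against the mRatBN7.2 annotation and summed them to genes. The deposited table holds estimated counts, not scaled, as whole numbers of at least 10, so that a filter came before deposit. It has 10851 genes, and 37816239 to 50350554 counts per rat. Which filter was used is not given in the sources used here.

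Counts were fitted in R 4.3.3 with edgeR 4.0.16 (TMM scaling, quasi-likelihood test, 4 group means, all 24 rats), with Benjamini-Hochberg adjustment over all genes. A Log2FC is the fitted CC minus control, with its SE. Levels are TMM-scaled CPM, and log2 CPM has a prior count of 2. Correlations used log2 CPM less the group mean and 100000 within-group permutations (Python 3.11.15, NumPy 2.4.6). The scripts were tested on simulated data. Promoter windows came from RefSeq (GRCr8), since no gene coordinates of the files' build were used.

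The members and gene lists were chosen with earlier results of these data known. Named genes were the 8 members, the 2 with the smallest p of each list over both training states, and those most alike to Aqp4 and Dmd. Cav3, Pomk, Gmppb and Dolk were named after their values were seen, and some genes of the lists are not reported here. Alternatives were upper-quartile scaling, DESeq2 1.42.0, limma 3.58.1 voom with quality weights, other filters, a replicate block, a slow-fibre covariate, a Log2FC minimum of 1, only the rats of a comparison and leaving out each rat. Leaving out 2 CC-Ex rats together, using only the rats with slow-fibre scores above 7, ranges without a group's lowest rat, correlations without CC-Ex replicate 5 and list calls without each rat were added after seeing the data. Replicates are separate animals.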

Additional observations from a re-analysis of the deposited data

Results flagged for a closer look

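Dag1 in CC-Ex had 1 rat, replicate 5 at 169 CPM, whose gap to the next rat was 0.692 of the group's range in log2 CPM, and Sgcd in Sed had 1, replicate 1 at 12.0 CPM, with 0.659. Sgca in Ex had a high rat, replicate 2 at 152 CPM, with 0.71. Of 32 groups tested in this way, 3 were marked, and chance marks about 1 in 20. Utrn was marked for the difference of its CC-Ex vs. Ex and CC-Sed vs. Sed values, an interaction Log2FC of -0.38 (edgeR unadjusted p = 0.0257), which failed adjustment over all genes (adjusted p = 0.99958).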

How the results depend on the processing

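No member was called in CC-Sed vs. Sed with edgeR, but 1 was, Dmd, with DESeq2, with limma-voom and with the slow-fibre score as covariate. Leaving out 1 rat gave 0 to 1 called, with Dmd called without CC-Sed replicate 4 (adjusted p = 0.0339). Over both training states the 2 calls became 1 under upper-quartile scaling and 0 with a Log2FC of at least 1, and ranged from 1 to 2 when 1 rat was left out. Aqp4 joined them with limma-voom and, in a choice made after seeing the data, without CC-Ex replicates 4 and 5. The cause of these changes was not tested. In CC-Ex vs. Ex, Ex vs. Sed, CC-Ex vs. CC-Sed and the interaction 0 members were called under every alternative run.

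Values near 0 changed sign. Under upper-quartile scaling these were Sgca in CC-Ex vs. Ex (-0.016) and Sgcb over both training states (-0.041). With limma-voom they were Sgcd in CC-Ex vs. Ex (0.062) and CC-Ex vs. CC-Sed (0.020) and Sgcb in Ex vs. Sed (-0.00040), which DESeq2 put at -0.0016. The slow-fibre covariate gave Sgcb 0.019 in CC-Sed vs. Sed. Without CC-Ex replicates 4 and 5 Sgcd was 0.11 in CC-Ex vs. Ex, 0.0056 over both training states and 0.052 in CC-Ex vs. CC-Sed, and Utrn 0.014 over both. Leaving out 1 rat gave, for CC-Sed vs. Sed, -0.087 to 0.0065 for Sgcb and -0.10 to 0.066 for Dtna, and for CC-Ex vs. Ex -0.13 to 0.10 for Sgcd and -0.087 to 0.0068 for Dtna. Over both training states it gave -0.030 to 0.019 for Sgca and -0.074 to 0.016 for Dtna. For Ex vs. Sed it gave -0.44 to 0.26 for Aqp4 and -0.041 to 0.026 for Sgcb, and for CC-Ex vs. CC-Sed -0.11 to 0.45 for Aqp4, -0.062 to 0.017 for Dmd and -0.18 to 0.077 for Sgcd. For the interaction it gave -0.061 to 0.64 for Aqp4, -0.0061 to 0.11 for Dag1, -0.033 to 0.23 for Sgcd and -0.10 to 0.050 for Dtna.

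Of the correlations, 3 passed over 24 rats and 1 in the monocrotaline rats alone. The 3 were Sgca and Sgcb with the fast-fibre score and Aqp4 with the slow-fibre score. The r of Aqp4 with Dag1 was -0.72 in saline rats, -0.39 without the 2 rats farthest out and -0.35 in rats with a slow-fibre score above 7, and that with Sgcd was -0.72, -0.39 and -0.37, against 0.23 and 0.13 over all rats.

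Same-numbered rats did not deviate together (mean correlations of pairs -0.23 to 0.09), so the numbers were not used as pairs. The replicate block left 2 members called over both training states and 0 in CC-Sed vs. Sed, and gave Dtna 0.0013 there. Over all genes, calls in CC-Sed vs. Sed went from 701 to 1336 with DESeq2, 2474 with limma-voom, 1375 with the slow-fibre covariate and 2419 without CC-Ex replicates 4 and 5. In CC-Ex vs. Ex calls over all genes went from 108 to 685 with DESeq2, 1043 with limma-voom and 208 without those rats, to 23 under upper-quartile scaling, and to 1 with the replicate block or the 12 rats of the comparison alone. In the lists over both training states, genes that fell ranged over the alternatives without leaving out single rats from 1 to 4 for other complex genes, 5 to 7 for glycosylation, 0 to 2 for the basal lamina, 1 to 4 for the integrin link, 2 to 4 for membrane repair and 0 to 2 for channels. What greater depth would add was not tested.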
